A study of Bos taurus with 6 samples.

Results

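The 10 genes described here carry and limit signals of the TGF-beta and BMP family inside the cell. They were chosen by symbol and comprise SMAD2, SMAD3, SMAD4, SMAD6, SMAD7, SKIL, TGIF1, ID1, ID2 and ID3. Each symbol stood on 1 row of a count table of 28200 rows, and all 10 passed the filter on low counts that left 13390 genes for testing. The RNA was that of primary cultures of bovine mammary epithelium (Holstein breed). Wild-type cells gave 3 libraries, and cells whose gene for the transcription factor KLF6 had been disrupted with CRISPR/Cas9 gave the other 3. No other allele, treatment or time point is given for either genotype. The labels do not say whether the knockout was 1 clone or a pool, nor whether libraries of the same genotype are separate cultures. The p-values therefore measure no more than the spread among these 6 libraries, and that spread may be technical.

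Ligands of this family bind paired receptor kinases at the cell surface, which phosphorylate the receptor-activated SMADs. SMAD2 and SMAD3 serve TGF-beta and activin receptors, while SMAD1, SMAD5 and SMAD9 serve BMP receptors, and both classes join SMAD4 and enter the nucleus. SMAD6 and SMAD7 are inhibitory SMADs that act back on the receptors, and SKIL (also called SnoN) and TGIF1 are nuclear corepressors that limit transcription by SMAD complexes. The ID genes are classical targets of BMP signalling. They encode helix-loop-helix proteins that lack a DNA-binding region and keep E proteins off DNA, and in many epithelia they are known for holding back differentiation. SMAD7 and SKIL are themselves textbook targets of TGF-beta, which makes them feedback inhibitors.

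Total counts lay between 17512892 and 18724879 per library, and KLF6 itself stood at 224, 230 and 217 CPM in the knockout libraries against 503, 496 and 558 CPM in wild type. CPM are counts per 1000000 of the scaled library. Wild-type replicate 3 differed more from its group than any other library did. Its variance against replicates 1 and 2 was 8.93 and 8.87 times that of counting error, and for the other pairs of libraries within a genotype this ratio lay between 2.25 and 2.77. Values without that library are given below for SMAD2, SMAD3, SKIL, ID1 and ID2.

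Knockout libraries had less ID3 and ID1 RNA and more TGIF1 RNA, whereas the 5 SMAD genes all lay within 1.24-fold of wild type. By edgeR's quasi-likelihood test with Benjamini-Hochberg adjustment over all 13390 genes at 0.05, 4 of the 10 genes rose (SMAD4, SMAD7, SKIL and TGIF1), 4 fell (SMAD2, SMAD3, ID1 and ID3) and 2 were not called (SMAD6 and ID2). Of all tested genes 74.6% were called, 37.1% as higher and 37.6% as lower in knockout, so a count of 8 called of 10 is near the background. In size the members moved little beside the rest of the table. Their median absolute log2 fold change was 0.29, against 0.50 over all tested genes. At least 1.5-fold changes were found for 3 members (TGIF1, ID1 and ID3), where 41.5% of all genes were called and passed that fold, and at least 2-fold only for ID3, where 22.3% did. In 8 of the 10 genes the libraries of the genotypes did not overlap, as in 76.2% of all tested genes.

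**Figure D1:**
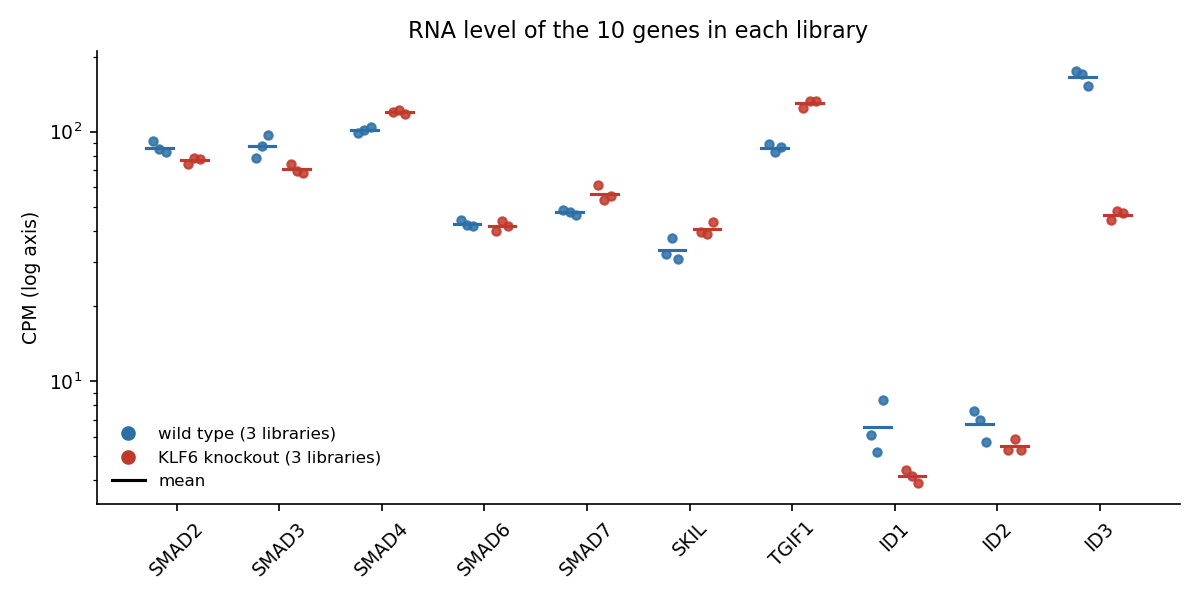
RNA level (CPM, log axis) of the 10 genes in each of 3 wild-type (blue) and 3 KLF6 knockout (red) libraries, with short lines at the group means. ID3 and TGIF1 show the widest gaps between the nearest libraries of the genotypes, SMAD6 and ID2 overlap, and ID1 and ID2 lie near or below 8.41 CPM in every library.

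The receptor-activated SMADs of the TGF-beta class were slightly lower in knockout. SMAD3, the member of the pair that binds DNA directly, was read at 74.0, 69.9 and 68.5 CPM in knockout and at 78.7, 87.4 and 97.0 CPM in wild type. All knockout libraries lay below all wild-type libraries, but the wild-type values spread over a wider range. SMAD3 fell 1.24-fold, with a log2 fold change of -0.31 ± 0.07 (SE, 95% interval -0.45 to -0.17, edgeR adjusted p = 0.000469). Without wild-type replicate 3 it was -0.23 (adjusted p = 0.000299).

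SMAD2, its close relative, was read at 73.9, 78.2 and 78.0 CPM in knockout and at 91.4, 85.3 and 82.5 CPM in wild type. The groups did not overlap, and the gap between the highest knockout and the lowest wild-type library was small. SMAD2 fell 1.13-fold (log2 fold change -0.17 ± 0.05, 95% interval -0.29 to -0.06, adjusted p = 0.00861). It was -0.20 without wild-type replicate 3 (adjusted p = 0.000705). The call was lost without knockout replicate 1 (-0.14, adjusted p = 0.0534) and without wild-type replicate 1 (-0.13, adjusted p = 0.0606). Per length of gene, the ratio of SMAD2 to SMAD3 RNA was 1.11 ± 0.0780 (SD, n = 3) in knockout and 1.02 ± 0.159 in wild type, and these ratios overlapped between genotypes.

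SMAD4, the common partner of both SMAD classes, moved the other way. It was read at 120, 122 and 118 CPM in knockout and at 98.5, 102 and 105 CPM in wild type, without overlap. SMAD4 rose 1.18-fold (log2 fold change 0.24 ± 0.05, 95% interval 0.14 to 0.34, adjusted p = 0.000197). Per length of gene, SMAD4 RNA was 0.514 ± 0.00610 of the sum of SMAD2 and SMAD3 in knockout and 0.370 ± 0.00379 in wild type. The 3 knockout ratios (0.512, 0.521 and 0.510) all lay above the 3 wild-type ratios (0.366, 0.374 and 0.369). An exact two-sided permutation test of the log2 ratio gave p = 0.1, the smallest that 3 libraries against 3 allow. SMAD4 and SMAD2 lie on chromosome 24 and SMAD3 on chromosome 10, whose genes shifted in opposite directions, as described further on. The part of those shifts in this ratio was not tested.

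Of the inhibitory SMADs, SMAD7 was called and SMAD6 was not. SMAD7, which blocks TGF-beta and BMP receptors alike, was read at 60.9, 53.1 and 55.4 CPM in knockout and at 48.5, 47.8 and 46.4 CPM in wild type, without overlap. SMAD7 rose 1.19-fold (log2 fold change 0.25 ± 0.06, 95% interval 0.11 to 0.38, adjusted p = 0.00187). SMAD6, which acts mainly on BMP signalling, was read at 40.0, 43.8 and 42.0 CPM in knockout and at 44.1, 42.4 and 41.7 CPM in wild type. These values overlap, and the log2 fold change of -0.03 ± 0.06 did not pass the test (adjusted p = 0.715). Its 95% interval ran from -0.16 to 0.11. The log2 ratio of SMAD7 to SMAD6 per length was 0.50 ± 0.17 in knockout and 0.23 ± 0.02 in wild type, without overlap (exact two-sided permutation p = 0.1, the smallest possible), and the order of their changes turns once chromosome medians are subtracted.

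The balance of inhibitory to receptor-activated SMAD RNA was compared within each library, which makes it independent of library scaling. Per length of gene, SMAD6 and SMAD7 together were 0.547 ± 0.0125 of SMAD2 and SMAD3 together in knockout (0.560, 0.536 and 0.545) and 0.425 ± 0.0217 in wild type (0.445, 0.428 and 0.402). The log2 ratio was higher by 0.37 in knockout, with no overlap (exact two-sided permutation p = 0.1, the smallest possible here). Without wild-type replicate 3 the difference was 0.33. Each side of this ratio holds 1 gene of chromosome 24 and 1 of chromosome 10, whose genes as a whole shifted, as described further on.

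Both corepressors among the 10 genes rose. TGIF1, a homeodomain protein that recruits corepressor complexes to SMAD2 and SMAD3, was read at 124, 133 and 132 CPM in knockout and at 89.2, 82.6 and 86.8 CPM in wild type. The groups were far apart beside their spread. TGIF1 rose 1.51-fold (log2 fold change 0.59 ± 0.05, 95% interval 0.48 to 0.70, adjusted p = 6.31e-09), and with any 1 library left out the log2 fold change lay between 0.56 and 0.63. It was the member with the largest rise.

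SKIL was read at 39.6, 38.9 and 43.4 CPM in knockout and at 32.3, 37.6 and 30.9 CPM in wild type. The highest wild-type library came close to the lowest knockout library, with no overlap. SKIL rose 1.21-fold (log2 fold change 0.27 ± 0.08, 95% interval 0.11 to 0.44, adjusted p = 0.00463), and the value was 0.22 without wild-type replicate 3 (adjusted p = 0.00956).

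The nearest relatives of the corepressors were not called. SKI, the founding member of the SKIL family, averaged 43.7 ± 2.94 CPM over the knockout and 44.4 ± 0.464 CPM over the wild-type libraries (log2 fold change -0.02 ± 0.07, 95% interval -0.16 to 0.12, adjusted p = 0.778). TGIF2 was rare, at 4.42 ± 0.409 and 4.97 ± 0.386 CPM (-0.17 ± 0.15, 95% interval -0.49 to 0.15, adjusted p = 0.330). The difference between a member and its relative was not tested.

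The ID genes carried the largest change among the members. ID3 was read at 44.1, 48.1 and 47.0 CPM in knockout and at 174, 170 and 153 CPM in wild type. Each wild-type library held over 3 times the ID3 level of any knockout library. ID3 fell 3.56-fold (log2 fold change -1.83 ± 0.06, 95% interval -1.96 to -1.71, adjusted p = 6.41e-15). With any 1 library left out the log2 fold change lay between -1.89 and -1.79. In absolute size this change exceeded that of 91.0% of all tested genes.

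ID1 and ID2 were rare, with 70 to 154 and 92 to 135 counts per library, so that counting error alone gives a coefficient of variation between 9.02% and 11.6% in each genotype. ID1 was read at 4.42, 4.19 and 3.90 CPM in knockout and at 6.10, 5.20 and 8.41 CPM in wild type. The groups did not overlap, and wild-type replicate 3 was the highest of all. ID1 fell 1.57-fold (log2 fold change -0.66 ± 0.18, 95% interval -1.03 to -0.29, adjusted p = 0.00267). Without wild-type replicate 3 the log2 fold change was -0.43 (adjusted p = 0.0226), and it was -0.80 at the other end, so that 1 library sets much of its size.

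ID2 was read at 5.28, 5.87 and 5.30 CPM in knockout and at 7.62, 6.97 and 5.68 CPM in wild type, and wild-type replicate 3 lay within the knockout range. Its log2 fold change of -0.30 ± 0.15 did not pass the test (95% interval -0.61 to 0.01, adjusted p = 0.0714). It passed without wild-type replicate 3 (-0.41, adjusted p = 0.0160) and when counts were scaled only by library size (-0.35, adjusted p = 0.0377).

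ID4, the remaining gene of the family, is not among the 10 and was placed beside them as the closest relative of the ID genes. It was read at 12.2, 13.5 and 13.4 CPM in knockout and at 88.0, 90.3 and 75.02 CPM in wild type, with a wide gap between genotypes. ID4 fell 6.49-fold (log2 fold change -2.70 ± 0.08, 95% interval -2.87 to -2.52, adjusted p = 3.05e-15).

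**Figure D2:**
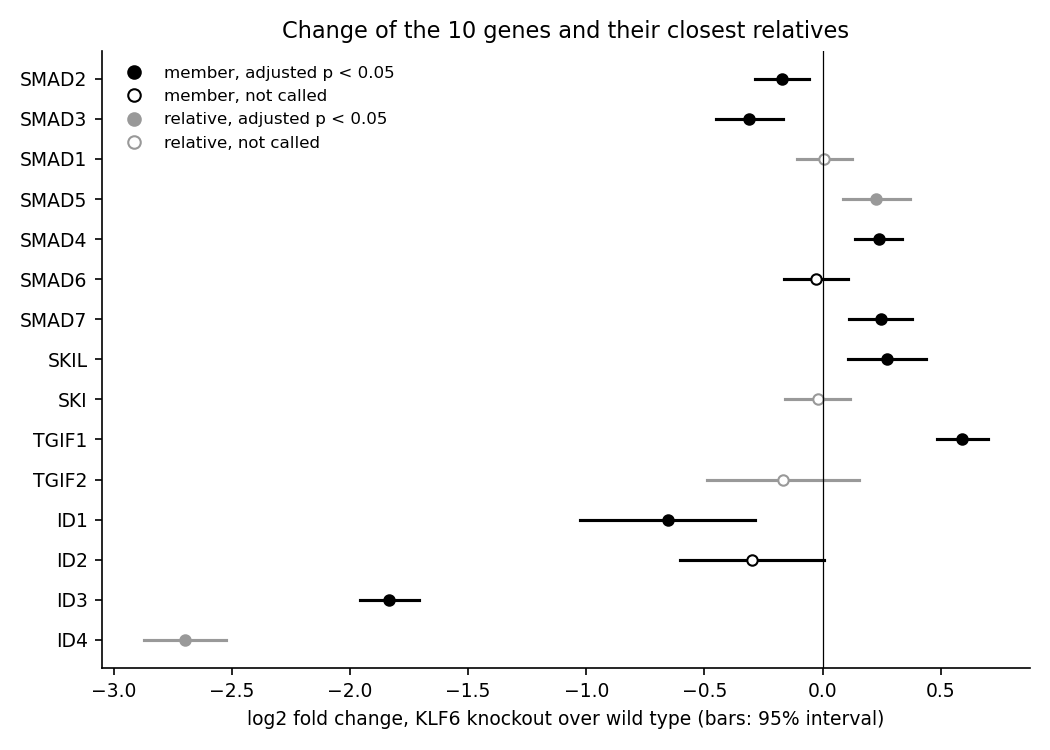
Log2 fold change (knockout relative to wild type) with 95% intervals for the 10 genes (black) and their closest relatives (grey), filled where the adjusted p is under 0.05. ID3 at -1.83 and ID4 at -2.70 stand far from the SMAD genes, which lie between -0.31 and 0.25, and TGIF1 at 0.59 is the highest.

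Per length of gene, ID3 was the most abundant of the 10 genes in wild type, at 178 ± 12.4 CPM per kilobase, ahead of TGIF1 at 56.5 ± 2.19. In knockout the order of the pair was exchanged, with TGIF1 at 85.1 ± 3.32 and ID3 at 50.0 ± 2.22 CPM per kilobase. SMAD2 and SMAD3 followed in wild type at 38.8 ± 2.04 and 38.5 ± 4.01 CPM per kilobase, which overlap, and then SMAD4 at 28.6 ± 0.866. In knockout SMAD2 (34.4 ± 1.09) and SMAD4 (33.7 ± 0.554) overlapped and SMAD3 stood below them at 31.1 ± 1.27 CPM per kilobase. SMAD7, SMAD6 and SKIL came next in both genotypes, between 11.04 and 21.0 CPM per kilobase on average, and SMAD6 and SKIL overlapped in knockout. ID2 and ID1 were the lowest, at 3.93 and 2.21 CPM per kilobase in knockout and 4.84 and 3.48 in wild type, where they overlapped.

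The summed level of ID1, ID2 and ID3 per length fell from 187 ± 12.3 to 56.2 ± 2.32 CPM per kilobase. ID3 made up 95.5% ± 0.438 of that sum in wild type and 89.1% ± 0.529 in knockout, and the libraries did not overlap (exact two-sided permutation p = 0.1, the smallest possible). The shares of ID1 (1.89% ± 0.606 against 3.94% ± 0.372) and ID2 (2.58% ± 0.213 against 6.99% ± 0.260) were larger in knockout in the same test (p = 0.1 each in the exact permutation), although the level of ID1 itself fell. These shares are parts of the same sum, so a lower share of ID3 leaves a higher one for ID1 and ID2 together. The tests of the shares are therefore not separate results. With ID4 included, the sum went from 307 ± 23.7 to 74.8 ± 3.33 CPM per kilobase, and ID4 held 39.2% ± 1.07 of it in wild type and 24.9% ± 0.399 in knockout. In that wider sum the share of ID3 was instead higher in knockout, at 66.9% ± 0.0635 against 58.1% ± 0.771 in wild type, without overlap. Gene lengths are those of the count table, and those of ID4 (700 bases) and ID3 (928 bases) are the shortest of the family, which raises their per-length levels.

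**Figure D3:**
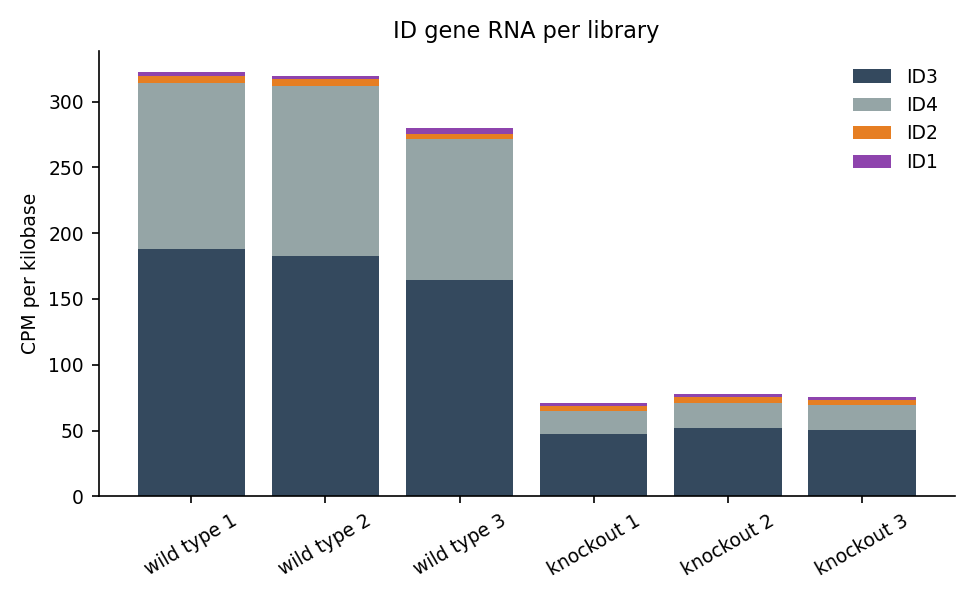
Stacked CPM per kilobase of ID3, ID4, ID2 and ID1 in each library, from 0. The wild-type columns reach 280 to 322 CPM per kilobase and the knockout columns 71.1 to 77.5, with ID3 the largest part in all 6 libraries.

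The members lie on 6 chromosomes, and 4 of them share chromosome 24. The count table gives coordinates, and the sources used here do not name their build. On them, TGIF1 lies at chr24:37527297-37535143, SMAD2 at chr24:47500431-47583313, SMAD7 at chr24:48598830-48627410 and SMAD4 at chr24:50524995-50577277. SMAD6 (chr10:13478777-13621037) and SMAD3 (chr10:13895783-14018262) are close to each other on chromosome 10. SKIL lies at chr1:97035501-97055587, ID3 at chr2:129296772-129298371, ID2 at chr11:88604880-88607401 and ID1 at chr13:61179938-61182003, the last on the chromosome of KLF6. The table lists each as protein coding, and a small nuclear RNA gene with 6 counts in all libraries inside SMAD4 was the only gene that overlapped a member.

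Chromosome 24 as a whole was higher in knockout. Its 187 tested genes had a median log2 fold change of 0.37, against -0.01 over all tested genes, and 59.9% of them rose while 14.97% fell. The rises of SMAD4 (0.24) and SMAD7 (0.25) lay below that median, at a position above 39.8% and 40.3% of the other tested genes of the chromosome. TGIF1 (0.59) lay above 65.1% of them and SMAD2 (-0.17) above 16.1%. With the chromosome's median subtracted, SMAD4 came to -0.13 and SMAD7 to -0.12, while TGIF1 kept 0.22 and SMAD2 came to -0.54. The 37 tested genes within 5 Mb of SMAD4 had a median of 0.45, the 32 around SMAD7 had 0.26, the 46 around SMAD2 had 0.38 and the 46 around TGIF1 had 0.12.

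Chromosome 10 was shifted in the other direction, with a median of -0.28 over 606 tested genes, of which 53.0% fell and 25.1% rose. SMAD3, at -0.31, lay near that median, and its value with the median subtracted was -0.03. SMAD6 came to 0.26 on the same scale. Within 5 Mb of SMAD3, though, the 57 tested genes had a median of only -0.05. The chromosomes of the ID genes had medians between -0.04 and 0.08, and that of SKIL had -0.11. ID3, ID1, ID2 and SKIL kept -1.86, -0.73, -0.26 and 0.38 after subtraction. The part that these chromosome shifts have in the changes of single members was not tested.

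**Figure D4:**
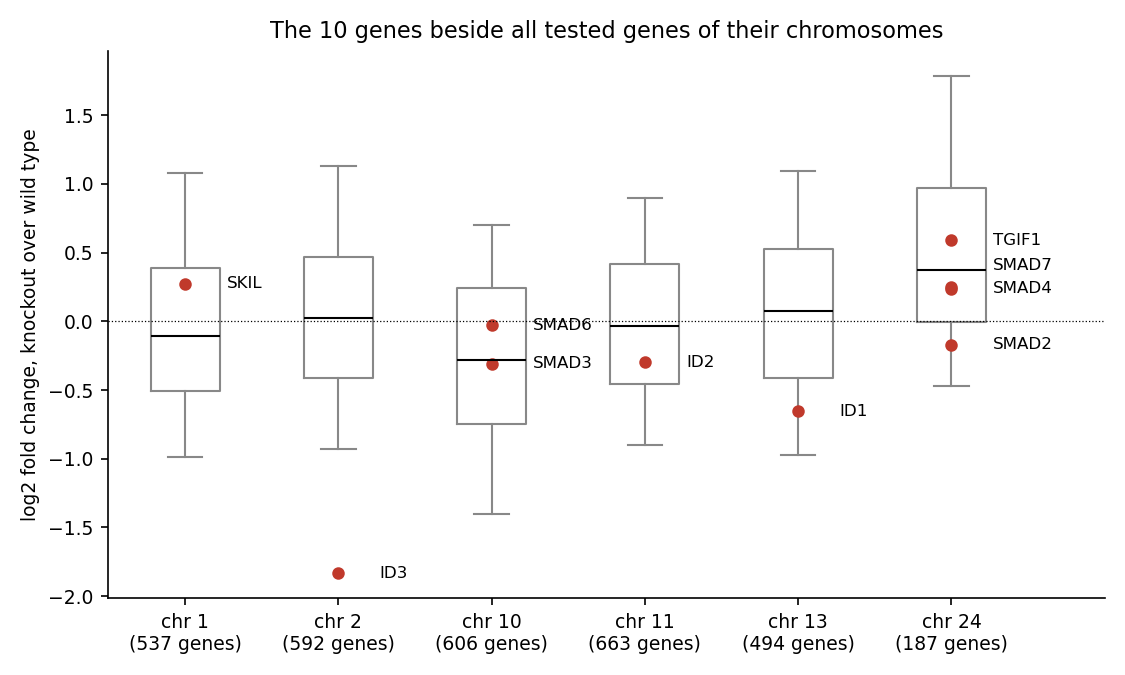
Log2 fold change of all tested genes on the 6 chromosomes that hold a member (boxes: quartiles and median, whiskers: 10th to 90th percentile), with the 10 genes as red points. SMAD4 and SMAD7 lie just under the median of chromosome 24 (0.37), SMAD3 lies at that of chromosome 10 (-0.28), and ID3 lies far below the whisker of chromosome 2.

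Neighbouring genes on the chromosome did not follow the members in a single pattern. Next to ID3, 28.5 kb away, the cell cycle factor gene E2F2 rose (log2 fold change 0.86 ± 0.11, adjusted p = 9.52e-07). KIDINS220, 23.9 kb from ID2, fell (-0.66 ± 0.06), as did MYL12B beside TGIF1 (-0.53 ± 0.06). AAGAB, 11.8 kb beyond SMAD3, rose (0.34 ± 0.06), and MEX3C beside SMAD4 rose (0.97 ± 0.05). DLGAP1, on the other side of TGIF1, rose from a low level (3.06 ± 0.41). An unnamed locus 5.66 kb from SMAD7 rose (1.33 ± 0.17), and another, 23.1 kb from ID1, fell (-0.54 ± 0.21). ELAC1, on the other side of SMAD4, had a log2 fold change of -0.17 ± 0.13 and did not pass the test.

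Of the BMP-class SMADs, 1 rose and 1 was not called. SMAD1 averaged 57.4 ± 0.693 CPM over the knockout and 57.1 ± 1.01 CPM over the wild-type libraries (log2 fold change 0.01 ± 0.05, 95% interval -0.11 to 0.12, adjusted p = 0.901). SMAD5 rose 1.17-fold (0.23 ± 0.07, adjusted p = 0.00523). SMAD9 was almost unread, with 14 counts over the knockout and 1 over the wild-type libraries, a ratio of 14.2 (95% counting interval 2.17 to 602), and was not tested.

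Genes whose products modify, degrade, stabilise or place SMADs were counted from a list of 14, of which 13 were tested. Beside this and the following list counts, 37.1% of all tested genes were called as higher and 37.6% as lower in knockout. The list holds genes that act against SMADs and genes that act for them, such as ZFYVE9, whose product brings SMAD2 and SMAD3 to the receptor, and USP15 and USP9X, whose products remove ubiquitin. Of the tested genes 3 rose and 8 fell (ZFYVE9, USP15 and USP9X among the latter), with a median of -0.27 against -0.01 over all tested genes. The ubiquitin ligase genes NEDD4L, whose product marks activated SMAD2 and SMAD3 for decay, and SMURF2, whose product acts with SMAD7 at receptors, rose (0.97 ± 0.05 and 0.63 ± 0.05). NEDD4L also lies on chromosome 24. The SMAD4-directed ligase gene TRIM33 fell (-0.92 ± 0.08), as did the phosphatase gene PPM1A (-0.66 ± 0.06) and RNF111 (-0.46 ± 0.06), whose product degrades SKIL and SMAD7. STUB1 rose slightly (0.15 ± 0.05, adjusted p = 0.0111), and the call was lost when wild-type replicate 2 (adjusted p = 0.0680) or knockout replicate 3 (0.0758) was left out, or when counts were scaled only by library size (0.0753).

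Of 7 other corepressors, 4 fell and 1 rose, with a median of -0.32. The corepressor genes NCOR1 (-0.50 ± 0.05) and MECOM (-1.05 ± 0.20) fell, whereas the deacetylase gene HDAC1 rose (0.38 ± 0.04). Of 7 tested coactivators and DNA-binding partners of SMADs, 5 fell and 0 rose in the edgeR test, with a median of -0.32. KAT2B was called only narrowly (edgeR adjusted p = 0.0495), and by DESeq2 4 genes of this list fell. The acetyltransferase genes EP300 (-0.79 ± 0.06) and CREBBP (-0.38 ± 0.07) and the runt-domain factor gene RUNX2 (-0.46 ± 0.07) were those with the largest falls.

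Upstream, 11 receptors were tested, and 3 rose, 2 fell and 6 were not called (median -0.09). TGFBR2, the type II receptor of TGF-beta, rose from 50.6 ± 1.73 to 72.1 ± 0.902 CPM (0.51 ± 0.05), while TGFBR3, a coreceptor, fell from 25.7 ± 1.43 to 8.995 ± 0.931 CPM (-1.52 ± 0.10). TGFBR1, the type I receptor that phosphorylates SMAD2 and SMAD3, fell by 0.20 ± 0.06 on the log2 scale, a call that was lost without knockout replicate 1 (adjusted p = 0.0581). The BMP receptor genes ACVR1 (0.44 ± 0.06) and BMPR2 (0.27 ± 0.05) rose.

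Of 11 tested ligands, 5 rose and 4 fell (median 0.09). TGFB2 rose (1.09 ± 0.08), as did TGFB3 (0.96 ± 0.18) and the activin subunit gene INHBA (4.19 ± 0.11). BMP2 fell from 6.46 ± 0.526 to 0.523 ± 0.152 CPM (-3.61 ± 0.23), and NODAL (-2.28 ± 0.53) and GDF15 (-1.92 ± 0.28) fell too. NODAL and GDF15 were rare, with 8 and 35 counts summed over knockout and 41 and 136 over wild-type libraries. Of 7 tested ligand antagonists, 6 rose and 1 fell. The BMP antagonist genes CHRD (3.15 ± 0.30) and NOG (2.58 ± 0.33) rose from low levels, and BMPER, with 59 counts summed over knockout and 0 over wild-type libraries, was at least 20.0-fold higher against a floor of 3 counts over the group. Of the activin-binding antagonists, FST fell (-0.71 ± 0.04) and FSTL3, named after its values were seen, rose from 376 ± 14.4 to 1214 ± 33.5 CPM (1.69 ± 0.04). The median of this list was 1.69, and BMPER at its bound stays above it.

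**Figure D5:**
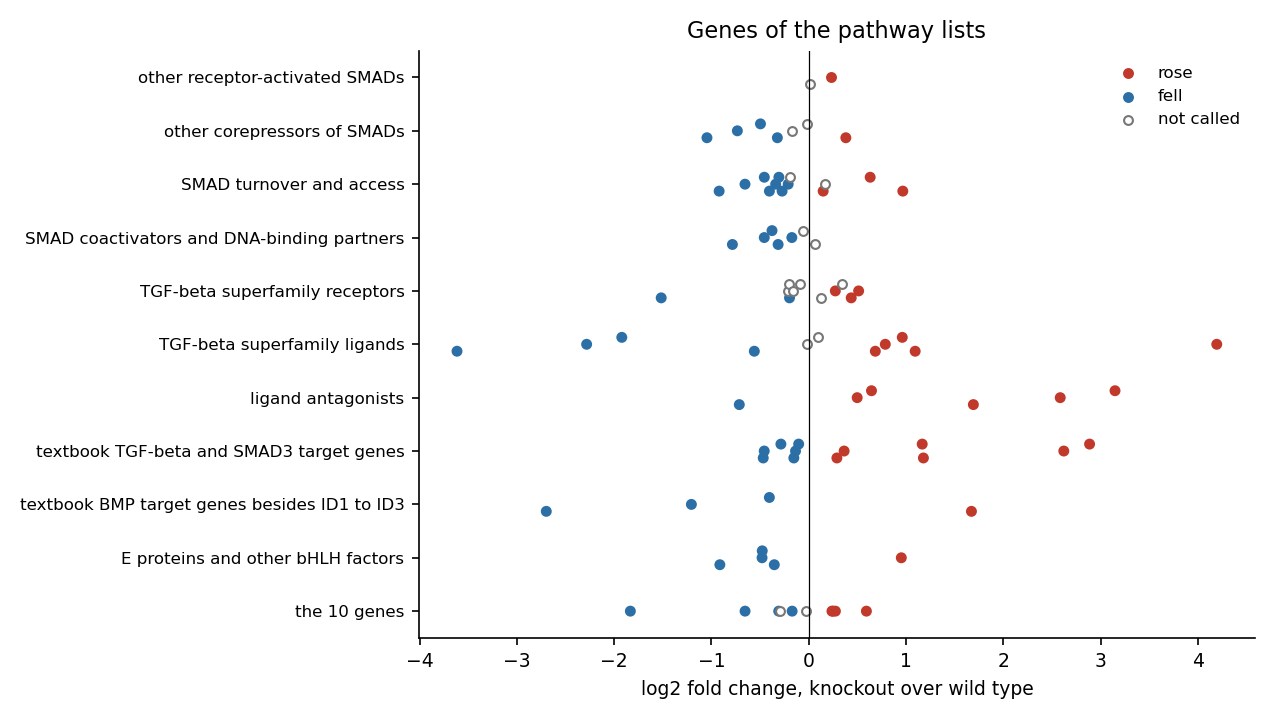
Log2 fold change of each tested gene of the 10 pathway lists, with the 10 genes in the lowest row (red: rose, blue: fell, open: not called; BMPER and COL1A2, at 0 in wild type, are left out). Ligands and their antagonists reach from -3.61 to 4.19, while the 10 genes stay between -1.83 and 0.59.

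Textbook targets were listed for each branch of the pathway, apart from the members. Of 13 tested TGF-beta and SMAD3 targets, 7 rose and 6 fell in the edgeR test, with a median of 0.29. The list was not split by the direction in which TGF-beta moves a target, so these counts do not measure signalling. SNAI1, a transcription factor of the mesenchymal state, rose from 0.804 ± 0.108 to 4.98 ± 0.776 CPM. COL1A2 reached 278 counts summed over knockout and 0 over wild-type libraries, which is at least 94.3-fold higher against the same floor. JUNB (-0.47 ± 0.05) and SNAI2 (-0.29 ± 0.05) fell. COL1A1 fell by 0.46 ± 0.18, and the call was lost when wild-type replicate 3 (-0.32, adjusted p = 0.152), knockout replicate 1 (0.0722) or knockout replicate 3 (0.0790) was left out, and in DESeq2 (0.0841). By DESeq2, 3 genes of this list fell.

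Of 8 BMP targets other than ID1, ID2 and ID3, 4 were tested, and 3 fell and 1 rose, with a median of -0.81. Besides ID4, HEY1, a transcriptional repressor shared with Notch signalling, fell from 91.3 ± 4.17 to 39.6 ± 0.990 CPM (-1.21 ± 0.06), and the homeobox gene MSX1 fell (-0.41 ± 0.09). MSX2, another homeobox gene, rose (1.67 ± 0.22). The partners of the ID proteins moved in both directions. Of 5 tested E proteins and other helix-loop-helix factors, 4 fell and 1 rose, with a median of -0.48. The E protein gene TCF4 rose (0.95 ± 0.10) and lies on chromosome 24, while the E protein genes TCF12 (-0.48 ± 0.07) and TCF3 (-0.35 ± 0.06) fell. HES1 (-0.91 ± 0.06) and TWIST2 (-0.48 ± 0.14) fell too.

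Shifts of whole chromosomes touch several genes named from the lists. SNAI2 and HEY1 lie on chromosome 14, whose tested genes had a median log2 fold change of -0.82. With it subtracted, SNAI2 turned to 0.53 and HEY1 came to -0.39. After the same step with their own chromosomes' medians, TWIST2 came to -0.09, RNF111 to -0.17, TCF12 to -0.19, COL1A1 to -0.20, MSX1 to -0.22 and NCOR1 to -0.24. TRIM33 came to -0.53, PPM1A to -0.37, NEDD4L to 0.60, TCF4 to 0.58, STUB1 to 0.07 and SMAD5 to 0.12. TGFBR1, TCF3 and FST moved further down, to -0.37, -0.46 and -1.19.

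Markers of cell types were read beside these values. The 7 epithelial markers summed to 15811 to 17096 CPM in wild type and 6416 to 6618 CPM in knockout, with EPCAM and CDH1 not called. KRT14 rose (0.76 ± 0.05), and KRT5, KRT8, KRT18 and KRT19 fell. The 8 fibroblast markers summed to 1055 to 1251 CPM in wild type and 246 to 258 CPM in knockout, most of it DCN, and 1 of 7 tested rose while 4 fell. By DESeq2, 3 fibroblast markers fell. The 7 pericyte and smooth muscle markers summed to 144 to 163 CPM and 69.2 to 69.8 CPM, with RGS5 at 0. Of the 5 tested, 4 fell and MCAM rose (2.21 ± 0.17). Endothelial markers summed to 6.15 to 6.56 CPM in wild type and 32.8 to 33.7 CPM in knockout, with KDR and CLDN5 at 0 and PECAM1 making up most of the knockout sum. Of the 4 tested, PECAM1 rose (7.11 ± 0.18), while VWF (-3.85 ± 0.31) and TEK (-2.31 ± 0.45) fell. Leukocyte markers summed to 9.27 to 11.5 CPM and 16.0 to 18.1 CPM, with PTPRC at 0. AIF1 (1.28 ± 0.11) and CSF1R (2.44 ± 0.37) rose and CD74 fell (-4.92 ± 0.43). Adipocyte markers summed to 4.40 to 4.86 CPM and 6.54 to 9.03 CPM, with ADIPOQ at 0, and CIDEC rose (1.98 ± 0.21) while PPARG fell (-3.26 ± 0.49). The part of these marker changes in the values of the 10 genes was not tested, and in bulk RNA fewer cells of a type and less RNA per cell cannot be told apart.

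The authors' deposited table, which holds only genes that passed their own threshold, lists 8 of the 10 genes and leaves out SMAD6 and ID2. In the authors' deposited table the log2 fold change is -1.82 for ID3, -0.64 for ID1, 0.61 for TGIF1 and -0.16 for SMAD2, the last at an adjusted p of 0.0367.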

How the data were processed

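The authors deposited raw counts of 6 libraries, by gene, together with results of their own test. HISAT2 2.0.5 and, for counting, featureCounts 1.5.0-p3 are named in the submitters' processing notes. Settings, strand, build and annotation were not stated there. The authors' deposited table holds a signal (counts divided by 1 factor per library), a log2 fold change and an adjusted p-value.

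The counts were fitted with edgeR 4.0.16 in R 4.3.3 (TMM scaling, filterByExpr with a minimum count of 10 and minimum total of 15, robust quasi-likelihood test, Benjamini-Hochberg adjustment over 13390 genes at 0.05). Dividing a log2 fold change by the root of its F statistic gave the SE. Levels are mean ± SD over 3 libraries, and counting intervals are exact and cover counting error only. Alternatives were DESeq2 1.42.0, limma-voom (limma 3.58.1), other scalings and filters, a replicate block, leaving out each library, and subtracting chromosome medians. The fits were tested on simulated counts in which 200 genes were changed. That is far fewer than were called here, so scaling under such wide change was not tested. Overlapping transcripts and close homologues may share reads.

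The members and the 10 pathway and 6 marker lists were chosen with earlier results of these data known. Named are the members, their closest relatives (SMAD1, SMAD5, SMAD9, SKI, TGIF2 and ID4), chromosome neighbours, and up to 3 genes per direction of each pathway list with the largest called change, of which some are not reported here. CCN2 was found under its older symbol. PMEPA1, NBL1 and CDKN2B were not analysed here, and no sequences were used.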

Additional observations from a re-analysis of the deposited data

How the results depend on the processing

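The alternatives for the relatives and pathway genes, and the list counts without wild-type replicate 3, were chosen after seeing the data. In the 13 refits, SMAD3, SMAD4, SMAD7, SKIL, TGIF1, ID1 and ID3 kept direction and call. Subtraction of chromosome medians gives no test, and SMAD2, SMAD3, SKIL, TGIF1, ID1, ID2 and ID3 kept their direction under it. Subtracting the chromosome median reversed SMAD4 (-0.13), SMAD7 (-0.12) and SMAD6 (0.26). With 1 library left out, SMAD6 lay between -0.057 and 0.0079 (without knockout replicate 1), SMAD1 between -0.0031 (without wild-type replicate 3) and 0.024, and SKI between -0.068 and 0.029 (without knockout replicate 2). SMAD1 came to -0.042 when counts were scaled only by library size. These refits of SMAD6, SMAD1 and SKI did not pass the test, with adjusted p-values of 0.929 for SMAD6, 0.963 and 0.503 for SMAD1 and 0.737 for SKI where the sign turned. Members called with a library left out numbered 4 higher and 3 to 5 lower.

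The replicate numbers did not pair the libraries. Deviations of same-numbered libraries correlated at -0.04, 0.07 and -0.02. With a replicate block, 4938 genes were higher and 4956 lower, against 4963 and 5028 without it, and 4 members were called in each direction. Depth limits ID1, ID2 and TGIF2, which had at most 154 counts in a library.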
